A study of Mus musculus with 23 samples.

Results

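The unfolded protein response and the chaperones of the endoplasmic reticulum (ER) were followed in the ovary of female mice as 34 named genes, taken from the deposited table by exact match of the gene symbol. All 34 were among the 24716 genes listed, and all 34 were among the 20189 genes that passed the filter on low counts. The mice came from 3 inbred strains. C57BL/6J is widely used in the laboratory, CAST/EiJ was derived from wild castaneus mice, and NZO/HlLtJ mice become obese from variants in many genes. All were labelled wild type and untreated apart from diet. From 6 weeks of age they were fed either the control diet (10% fat) or one rich in fat and sugar (44% fat), each labelled as containing fiber, and tissue was taken at 15 weeks. The 6 groups held 4 libraries each, except C57BL/6J on 10% fat with 3, which gave 23 libraries of polyA RNA. The labels do not state that each library is a separate animal, so a p-value measures the spread between these libraries. The series' title poses the question of how genotype and diet interact.

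The ER folds and checks proteins that are to be secreted or placed in membranes. When unfolded proteins accumulate there, the sensors IRE1 (encoded by Ern1), PERK (encoded by Eif2ak3) and ATF6 signal to the nucleus through the transcription factors XBP1, ATF4 and the cleaved form of ATF6. Their targets include lumenal chaperones, oxidoreductases that form disulfide bonds, and the machinery that removes misfolded proteins for degradation. XBP1 is activated by splicing of its RNA and ATF6 by cleavage of the protein, steps that gene-level counts do not measure. In the ovary, the secretory and steroid-producing cells of follicles and corpora lutea carry an extensive ER.

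The genes were chosen by name and not by promoter sequence. They include known targets of ATF6, XBP1 and ATF4, so matches to the elements that these factors bind are not independent of the choice. Promoters from RefSeq (GRCm38.p6, 250 bases before to 50 after a start) were listed for 30 of the 34 genes, and none for Hyou1, Atf6, Manf and Derl1. The ER stress element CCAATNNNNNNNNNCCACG (ERSE), which ATF6 binds together with NF-Y, was searched on either strand. It stood in the promoters of 9 of the 30 genes, against 0.119% of all 32851 promoters in the table. Of these 9 genes, 7 were lower in NZO/HlLtJ than in CAST/EiJ, as were 12 of the 21 listed genes without a match. Over all genes the share was 24.8%. The matches are shown to be read beside these counts. Each is printed 5′ to 3′ on the strand that carries it, with the CCAAT and CCACG parts in capitals.
Hspa5, chr2:34772020-34772048, plus strand: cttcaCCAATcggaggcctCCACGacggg
Hsp90b1, chr10:86705633-86705661, minus strand: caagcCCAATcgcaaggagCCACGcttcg
Hsp90b1, chr10:86705528-86705556, plus strand: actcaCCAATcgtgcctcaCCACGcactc
Creld2, chr15:88819515-88819543, minus strand: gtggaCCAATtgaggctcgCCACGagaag
Pdia6, chr12:17266486-17266514, plus strand: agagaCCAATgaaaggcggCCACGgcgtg
Dnajc3, chr14:118937822-118937850, plus strand: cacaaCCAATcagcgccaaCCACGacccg
Calr, chr8:84847070-84847098, plus strand: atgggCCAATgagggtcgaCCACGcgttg
Canx, chr11:50325795-50325823, minus strand: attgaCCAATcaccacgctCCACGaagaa
Derl3, chr10:75893237-75893265, minus strand: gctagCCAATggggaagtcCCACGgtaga
Syvn1, chr19:6046527-6046555, plus strand: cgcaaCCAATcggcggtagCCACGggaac
The match in Hspa5 began 65 bases before the start, and those in the other genes began between 212 bases (Hsp90b1) and 44 bases (Syvn1) before it.

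The shorter element ATTGGNCCACG (ERSE-II) matched Herpud1 and Dnajb11, against 0.0365% of all promoters. These sites are printed with the ATTGG and CCACG parts in capitals.
Herpud1, chr8:94386372-94386392, plus strand: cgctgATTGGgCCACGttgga
Dnajb11, chr16:22857847-22857867, plus strand: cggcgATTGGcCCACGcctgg
The Herpud1 site began 52 bases before the start, and the Dnajb11 site began at base 8 after it. The element TGACGTGN (UPRE), bound by XBP1, matched only Hspa5 among the 30 genes, against 2.01% of all promoters. The composite element TGATGNAAN (CARE), bound by ATF4 with C/EBP partners, matched Chac1, Trib3, Asns and Herpud1, against 3.95% of all promoters. The sites of 3 ATF4 targets are printed with TGATG and AA in capitals.
Chac1, chr2:119351043-119351061, minus strand: aggagTGATGcAAcggcag
Trib3, chr2:152344034-152344052, plus strand: ccggcTGATGtAAacctga
Asns, chr6:7693219-7693237, minus strand: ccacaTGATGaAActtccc
A match is a stretch of letters and was not tested for binding. A missing match says only that these letters are not in the window searched.

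Library totals ranged from 31.9 to 45.9 M (megacounts) of estimated counts. Markers of granulosa, theca, luteal and oocyte cells were present in all libraries, with summed CPM (counts per M of the library, scaled by the trimmed mean of M values, TMM) of 1218 to 5259 for granulosa cells and 112 to 549 for oocytes. The library CAST/EiJ 10% fat replicate 2 stood apart. Its 9 oviduct epithelium markers summed to 5175 CPM and its 10 white adipocyte markers to 2378 CPM, and 21 of the 34 genes had their highest level of all 23 libraries there. In that group 29 genes were above the group mean in replicate 2 and 4 were above it in replicate 3. C57BL/6J 44% fat replicate 1 was the next highest in oviduct markers, at 241 CPM, and results are given without these 2 libraries where they move. The first digits of the submitters' sample identifiers form 3 series (76, 82 and 90), whose meaning no label gives. No library of series 90 belonged to C57BL/6J or NZO/HlLtJ on 10% fat, and none of series 82 to NZO/HlLtJ on 44% fat. In whole tissue, fewer cells of a type and less RNA per cell cannot be told apart.

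Levels between genes were compared per length, as TPM-like values, the counts over the exon length of each gene scaled to a fixed total per library. The lumenal chaperones were among the most abundant. Hsp90b1, the ER form of HSP90 (also called GRP94), had a median of 1141 over the 23 libraries. Hspa5, which encodes BiP, the HSP70 of the ER lumen, had 1005 and was among the first 3 members in 16 libraries. The nucleotide exchange factor Hyou1 stood at 194, the BiP regulator Manf at 156, and the co-chaperones Dnajc3, Dnajb11 and Dnajb9 at 143, 124 and 62.2. Sdf2l1, a partner of BiP and Dnajb11, stood at 78.7. Among the disulfide isomerases, Pdia3 stood at 856, P4hb at 850, Pdia4 at 606 and Pdia6 at 329, and the related Creld2 at 131. The calcium-binding lectin chaperones Calr and Canx had 1121 and 483, and the carbohydrate-binding Mlec had 244.

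The degradation genes had per-length levels of 131 or less. Derl1, a channel component, had a per-length level of 131, the ubiquitin ligase adaptor Sel1l 111, Herpud1 94.6, the mannosidase-like Edem1 58.4, the ligase Syvn1 47.2, Derl3 44.2 and Derl2 29.4. Sec61b, a subunit of the translocation channel, had 136. Among the signalling genes, Atf4 stood at 171, Xbp1 at 168, Ern1 at 72.9, Ddit3 (CHOP) at 42.1, Atf6 at 37.99 and Eif2ak3 at 24.0. The PERK-ATF4 targets included the lowest levels. Ppp1r15a, which directs dephosphorylation of eIF2α, had 49.7, asparagine synthetase (Asns) 24.8, the pseudokinase Trib3 3.22 and the glutathione-degrading Chac1 1.053. Chac1 was the lowest member in 22 of 23 libraries, with 5 to 139 estimated counts per library.

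**Figure D1:**
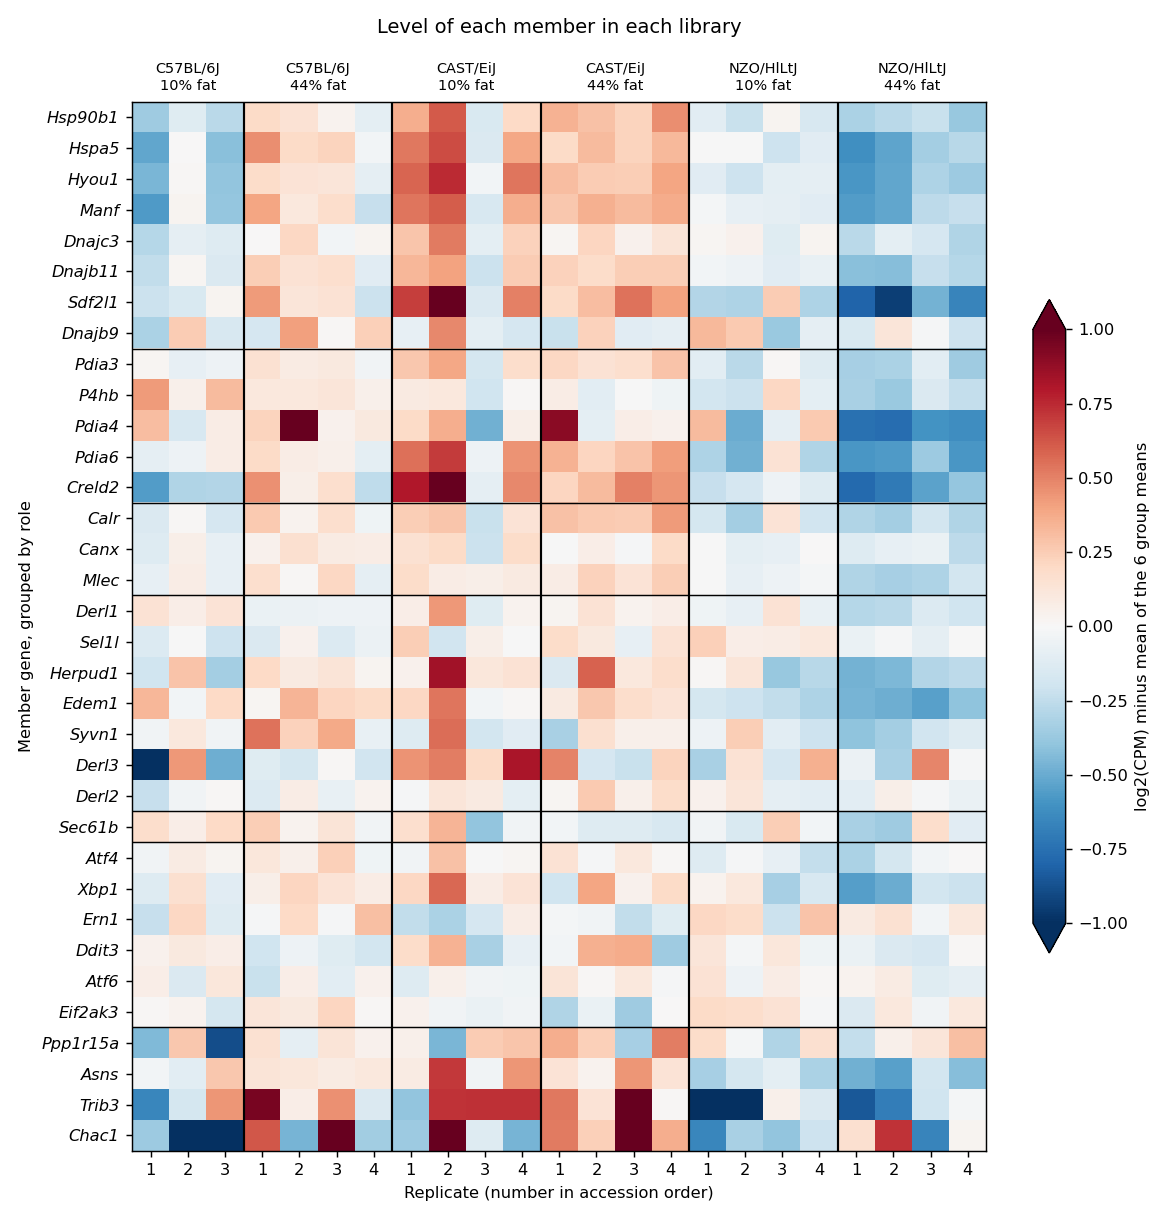
Each cell gives log2(CPM) of a gene in a library minus the mean of the 6 group means, with genes in rows by role, libraries in columns by group, and colours that saturate at 1 above or below. The NZO/HlLtJ 44% fat columns are blue for most chaperones, and CAST/EiJ 10% fat replicate 2, with 21 genes at their highest, is the reddest column.

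In C57BL/6J, 29 of the 34 genes had a higher mean on 44% fat, against 52.1% of all genes tested, but no single gene passed the test. Hspa5 (GRCm38 chr2:34771970-34777547, plus strand), in TMM-scaled CPM, was at 832, 1192 and 893 in the 3 libraries on 10% fat and at 1641, 1356, 1389 and 1166 in the 4 on 44% fat. The diets overlapped only through the highest library on 10% fat and the lowest on 44% fat. The log2 fold change was 0.51 (SE 0.16, edgeR adjusted p = 0.396). Hyou1 went from 340 ± 62.7 (SD, n = 3) to 434 ± 35.3 CPM (SD, n = 4), a log2 fold change of 0.35 (SE 0.14, edgeR adjusted p = 0.491). Manf, whose protein is released from cells when ER calcium falls, was at 130.5 ± 28.5 and 174 ± 30.4 CPM (edgeR adjusted p = 0.492).

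The median log2 fold change over the 34 genes in C57BL/6J was 0.17, against 0.012 over all genes. All 8 lumenal chaperones and co-chaperones had a positive value, as did 6 of 7 degradation genes and all 4 PERK-ATF4 targets. By edgeR 0 genes passed an adjusted p of 0.05, against a background over all 20189 genes of 0% higher and 0% lower. DESeq2 also called 0 of the 34. By edgeR 7 had an unadjusted p under 0.05, a count that this background does not cover. With limma and library quality weights, which called 791 genes in all (3.92%), Hspa5 and Hyou1 passed with log2 fold changes of 0.58 and 0.45. Without C57BL/6J 10% fat replicate 2, the library with the highest Hspa5 of its group, Hspa5 passed with 0.68 (edgeR adjusted p = 0.0405), 1 of 34 genes against 1.60% of all genes in that fit. Leaving out that library widens the Hspa5 difference by itself, so this pass is no separate support. That library held 5259 CPM of granulosa markers, against 1834 and 1964 CPM in the others of its group. Luteal markers were at 1987 to 4478 CPM on 10% fat and 3111 to 6081 CPM on 44% fat in C57BL/6J. Their part in the result was not tested.

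Hsp90b1, Dnajc3 and Creld2 were higher in every library on 44% fat than in any on 10% fat in C57BL/6J. Derl1 and the pro-apoptotic transcription factor Ddit3 were lower in every such library. Over all genes, 3.20% lay wholly higher and 4.88% wholly lower in this comparison, against 3 and 2 of the 34. Creld2, a chaperone-like secreted stress response gene, was at 36.4, 43.6 and 43.9 CPM on 10% fat and at 73.8, 56.0, 60.3 and 45.1 CPM on 44% fat. Immediate early genes, which mark handling and acute stimulation, also had mostly positive values: 16 of 17 did, 0 of 17 passed by edgeR, and their summed CPM was 310 to 408 on 10% fat and 377 to 653 on 44% fat. Their part in the result was not tested. Within identifier series 76 (1 library per diet) 27 of 34 genes were higher on 44% fat, and within series 82 (2 per diet) 28 were.

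In NZO/HlLtJ the 34 genes lay in the other direction: 4 had a positive fold change on 44% fat, against 49.6% of all genes, and the median log2 fold change was -0.18. Hspa5 was at 1188, 1185, 1029 and 1101 CPM on 10% fat and at 779, 827, 942 and 982 CPM on 44% fat. Every library on 44% fat was below every library on 10% fat. Mlec was at 412, 389, 399 and 406 CPM on 10% fat and at 335, 328, 333 and 362 CPM on 44% fat, again with no overlap. Its log2 fold change was -0.24 (SE 0.07, edgeR adjusted p = 1).

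Sdf2l1 in NZO/HlLtJ was at 21.2, 20.9, 30.9 and 21 CPM on 10% fat and at 14.9, 13.5, 18.7 and 16.4 CPM on 44% fat. The groups did not overlap, and the log2 fold change was -0.57 (SE 0.19, edgeR adjusted p = 1). Pdia4, an isomerase with several thioredoxin-like domains, was at 511, 291, 386 and 492.6 CPM on 10% fat. On 44% fat it was at 245, 242, 272 and 268 CPM, with no overlap and much less spread. Its log2 fold change was -0.71 (SE 0.25, edgeR adjusted p = 1).

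In all, 11 of the 34 genes lay wholly lower on 44% fat in NZO/HlLtJ and 0 wholly higher. The background over all genes was 1.64% wholly lower and 1.32% wholly higher. The 11 were Hspa5, Hyou1, Manf, Dnajb11, Sdf2l1, Pdia4, Creld2, Mlec, Edem1, Sel1l and Derl1. By edgeR 0 of the 34 passed the adjusted p, with a background of 0% higher and 0% lower. DESeq2 and limma with quality weights also called 0. By edgeR 14 had an unadjusted p under 0.05, a count that this background does not cover. In simulated data of the same size, the edgeR fit recovered 46% of genes changed 1.5-fold in this comparison. It recovered 4% at the smallest change simulated. Changed genes were planted there, while 0 of all genes passed in the real data. An adjustment over all genes is easier to pass where many are changed, so these shares may overstate recovery in the real comparison.

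The role without the common direction in NZO/HlLtJ was that of the PERK-ATF4 targets, of which 3 of 4 had a positive value. The 8 lumenal chaperones, 5 isomerase genes (counting Creld2), 3 lectin chaperones and 6 signalling genes all had negative values. Plasma cells carry a very large ER, and 11 of 12 plasma cell markers were in the table. Their summed CPM was 119 to 293 on 10% fat and 103 to 114 on 44% fat, most of it from Sdc1, which epithelial cells also express. The plasma cell chaperone Mzb1 was between 0.0736 and 0.679 CPM over all 23 libraries, near 0. Within identifier series 76, with 2 libraries per diet, 31 of 34 genes were lower on 44% fat and Hspa5 differed by -0.56 on the log2 scale.

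**Figure D2:**
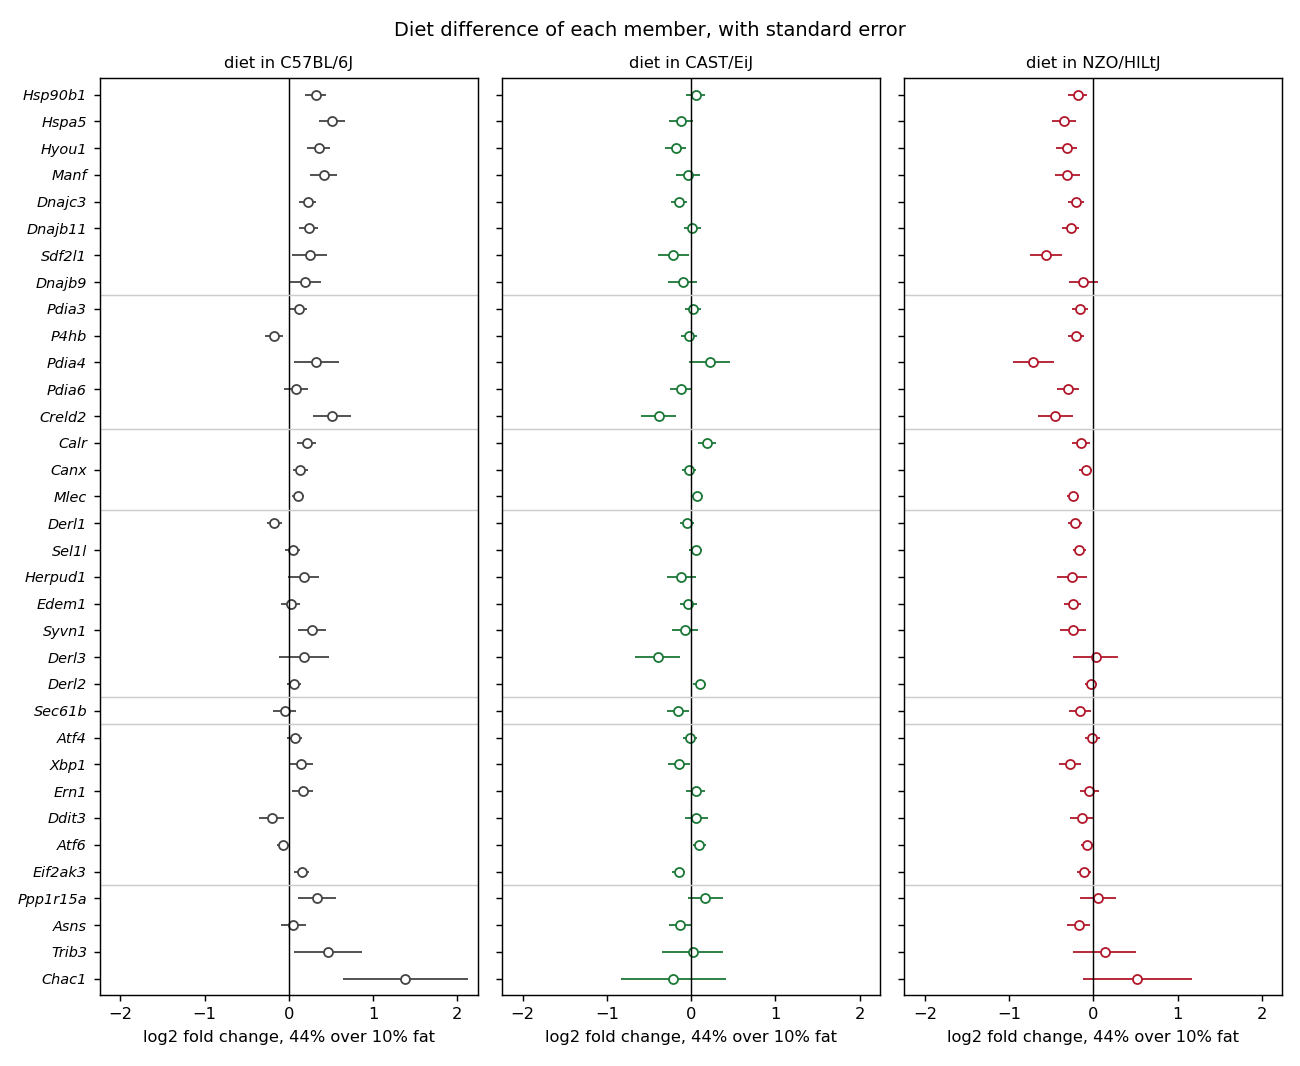
Points give the log2 fold change of 44% over 10% fat for each gene in each strain, with bars of 1 SE, and open points did not pass the adjusted p of 0.05. Most points lie right of 0 in C57BL/6J (29 of 34) and left of it in NZO/HlLtJ (30 of 34).

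CAST/EiJ showed no common direction: 13 of 34 genes had a positive fold change, against 45.8% of all genes, and the median was -0.03. Hspa5 was at 1719, 1869, 1077 and 1556 CPM on 10% fat and at 1362, 1481, 1387 and 1490 CPM on 44% fat. The 10% fat libraries spanned the whole range of the 44% fat group, with replicates 2 and 3 at the ends. Creld2 was at 93.6, 145, 50.4 and 74.8 CPM on 10% fat and at 62.4, 67.0, 76.3 and 72.9 CPM on 44% fat, a log2 fold change of -0.39 (SE 0.21, edgeR adjusted p = 0.449). The sensor Eif2ak3 had -0.15 (SE 0.08, edgeR adjusted p = 0.461) and Calr 0.19 (SE 0.11, edgeR adjusted p = 0.471).

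By edgeR 0 of the 34 genes passed in CAST/EiJ, against a background of 0.525% higher and 0.0991% lower. At an unadjusted p under 0.05 there were also 0, a count that this background does not cover. None lay wholly higher or lower, against 4.0% and 1.88% of all genes. The count of positive values rested on CAST/EiJ 10% fat replicate 2: it was 21 of 34 without that library and 23 without both libraries high in oviduct markers. Within the identifier series the counts were 11 (series 76), 7 (series 82) and 29 (series 90) of 34.

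**Figure D3:**
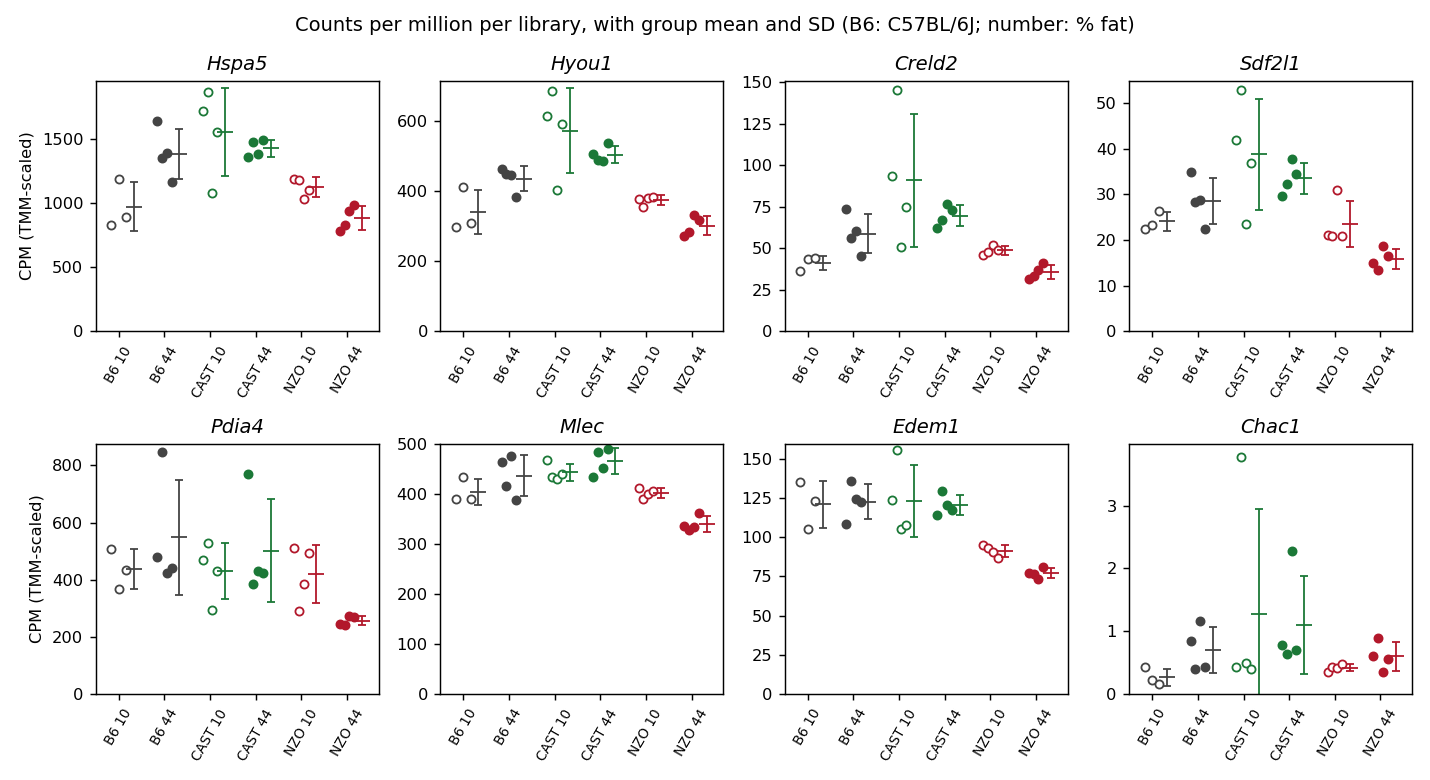
Points give the TMM-scaled CPM of 8 genes in each library by strain and diet (open, 10% fat; filled, 44% fat), with group means and SD bars that are cut at 0. Hspa5, Hyou1 and Creld2 are higher on 44% fat in C57BL/6J and lower in NZO/HlLtJ, while the Chac1 means of CAST/EiJ rest on a single high library on each diet (3.78 and 2.27 CPM).

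The diet effects of the strains were then compared as differences. They share libraries: each pair of comparisons rests on a common strain. For NZO/HlLtJ minus C57BL/6J, 1 of 34 genes had a positive value and the median was -0.32, against -0.0086 over all genes. Hspa5 had -0.86 (SE 0.21), Hyou1 -0.67 (SE 0.18) and Mlec -0.35 (SE 0.10), each with an edgeR adjusted p of 1. An unadjusted p under 0.05 was found by edgeR for 14 of 34, with no share over all genes beside it. At the adjusted p 0 of 34 passed by edgeR, with a background of 0% higher and 0% lower, and DESeq2 called 0. So an opposite diet response in these strains was not established for any single gene.

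For CAST/EiJ minus C57BL/6J, Hspa5 had -0.63 (SE 0.21, edgeR adjusted p = 0.130), Hyou1 -0.54 (SE 0.18, edgeR adjusted p = 0.145) and Creld2 -0.89 (SE 0.31, edgeR adjusted p = 0.148). Of the 34 genes 0 passed by edgeR and by DESeq2, against an edgeR background of 0.565% higher and 0.0495% lower. By edgeR 5 had an unadjusted p under 0.05, a count that this background does not cover. Limma with quality weights called Hspa5 and Hyou1 lower, 2 of 34 against 6.50% of all genes called in either direction. Without C57BL/6J 10% fat replicate 2 edgeR called the same 2 genes, against 4.26% of all genes. Without CAST/EiJ 10% fat replicate 3 it called them and Creld2, against 1.10% of all genes. The first of these libraries had the highest Hspa5 of its group and the second the lowest. Leaving out either widens the Hspa5 difference by itself, so these passes are no separate support.

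For NZO/HlLtJ minus CAST/EiJ, Mlec had -0.31 (SE 0.10, edgeR adjusted p = 0.252), Pdia4 -0.93 (SE 0.35, edgeR adjusted p = 0.329) and Calr -0.34 (SE 0.15, edgeR adjusted p = 0.415). By edgeR 0 of 34 passed, against a background of 0% higher and 0.0149% lower, and DESeq2 called 0. An unadjusted p under 0.05 was found by edgeR for 3, a count that this background does not cover. For the diet effect averaged over the strains, Derl1 had -0.15 (SE 0.05, edgeR adjusted p = 0.75), P4hb -0.14 (SE 0.06, edgeR adjusted p = 0.810) and Sdf2l1 -0.18 (SE 0.11, edgeR adjusted p = 0.890). There too 0 of 34 passed by edgeR and by DESeq2, against an edgeR background of 0% higher and 0% lower. By edgeR 2 had an unadjusted p under 0.05, a count that this background does not cover.

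More of the 34 genes passed the test between strains. Averaged over diets, 22 of the 34 genes were lower in NZO/HlLtJ than in CAST/EiJ and 2 were higher at an edgeR adjusted p under 0.05. The background was 24.8% lower and 23.4% higher over all genes, and the median of the 34 was -0.34, against -0.016 over all. Lumenal chaperones made up 7 of the 22, with only Dnajb9 not called. The other 15 were the isomerases Pdia3, Pdia4 and Pdia6, the related Creld2, 3 lectin chaperones, 3 degradation genes, 2 transcription factors and 3 PERK-ATF4 targets. The isomerase P4hb did not pass. Group means were highest in CAST/EiJ for 24 of the 34 genes (14 on 10% fat, 10 on 44% fat). They were lowest in NZO/HlLtJ on 44% fat for 24.

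Pdia6 (GRCm38 chr12:17266545-17284770, plus strand), an isomerase that also binds the sensor IRE1, ranged from 343 to 578 CPM in CAST/EiJ (median 465, n = 8) and from 237 to 393 CPM in NZO/HlLtJ (median 266, n = 8). The strains overlapped only through CAST/EiJ 10% fat replicate 3 and NZO/HlLtJ 10% fat replicate 3. Its log2 fold change was -0.75 (SE 0.09, edgeR adjusted p = 1.64e-06). Hyou1 (chr9:44379490-44392369, plus strand) ranged from 401 to 684 CPM (median 521) in CAST/EiJ and from 272 to 384 CPM (median 342) in NZO/HlLtJ. The strains did not overlap, and the log2 fold change was -0.68 (SE 0.09, edgeR adjusted p = 2.87e-06).

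Edem1 (chr6:108828641-108859356, plus strand), which delivers misfolded glycoproteins to degradation, ranged from 105 to 156 CPM (median 119) in CAST/EiJ and from 73.5 to 95.1 CPM (median 83.7) in NZO/HlLtJ. The strains did not overlap, and the log2 fold change was -0.54 (SE 0.07, edgeR adjusted p = 3.39e-06). Sdf2l1 ranged from 23.5 to 52.9 CPM (median 35.6) in CAST/EiJ and from 13.5 to 30.9 CPM (median 19.8) in NZO/HlLtJ. Its log2 fold change of -0.90 had an SE of 0.13 (edgeR adjusted p = 1.44e-05). Asns and Mlec also showed no overlap between these strains, which makes 4 of 34 genes wholly lower and 0 wholly higher. The background over all genes was 8.13% wholly lower and 8.66% wholly higher.

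The 2 genes that were higher in NZO/HlLtJ than in CAST/EiJ both encode stress sensors. Ern1 (IRE1) ranged from 139 to 182 CPM (median 156) in CAST/EiJ and from 149 to 211 CPM (median 189) in NZO/HlLtJ. The ranges overlapped widely, and the log2 fold change was 0.23 (SE 0.08, edgeR adjusted p = 0.0200). Eif2ak3 (PERK) ranged from 32.8 to 43.2 CPM and from 37.9 to 47.8 CPM, with a log2 fold change of 0.17 (SE 0.06, edgeR adjusted p = 0.0233). The third sensor, Atf6, had a log2 fold change of 0.0018 (SE 0.05, edgeR adjusted p = 0.981).

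Of the genes with an ERSE match in the promoter, 7 of 9 were lower in NZO/HlLtJ than in CAST/EiJ. Of the 21 listed genes without a match 12 were, against 24.8% of all genes. The exceptions with a match were Derl3 and Syvn1. The median log2 fold changes were -0.42 with a match and -0.30 without. For CAST/EiJ minus C57BL/6J, 7 of 9 genes with a match were higher (median 0.36), as were 5 of 21 without (median 0.13). Over all genes 23.2% were higher there, and the count without a match was near that share. These counts describe the genes and were not tested.

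CAST/EiJ also exceeded C57BL/6J for 14 of the 34 genes, with 1 lower, against a background of 23.2% higher and 23.6% lower. The median of the 34 was 0.16, against 0.014 over all genes. Hyou1 had a log2 fold change of 0.48 (SE 0.09, edgeR adjusted p = 0.000240), Hsp90b1 0.39 (SE 0.09, edgeR adjusted p = 0.000805), Creld2 0.69 (SE 0.16, edgeR adjusted p = 0.00109) and Manf 0.42 (SE 0.11, edgeR adjusted p = 0.00317). Hyou1 ranged from 298 to 462 CPM in C57BL/6J, so that the strains overlapped, as they did for all 34 genes. Over all genes, 7.84% lay wholly higher and 8.03% wholly lower. Of the lumenal chaperones 7 of 8 were higher.

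The gene lower in CAST/EiJ than in C57BL/6J was P4hb, the beta subunit of prolyl 4-hydroxylase and a general disulfide isomerase, with -0.19 (SE 0.07, edgeR adjusted p = 0.0302). Among the 14 was Chac1, with a log2 fold change of 1.43, which was 0.66 (edgeR adjusted p = 0.118) without CAST/EiJ 10% fat replicate 2. That library held 3.78 CPM and the other 3 of its group 0.394 to 0.496 CPM. The difference of Chac1 between NZO/HlLtJ and CAST/EiJ went from -1.24 to -0.47 (edgeR adjusted p = 0.246) without the same library. Without both libraries high in oviduct markers, 11 genes were higher and 1 lower in CAST/EiJ than in C57BL/6J. Over all genes in that fit, 48.3% were called (4684 higher and 4977 lower). In NZO/HlLtJ against CAST/EiJ, 19 were lower and 2 higher without both libraries. There 49.2% of all genes were called (4862 lower and 4973 higher).

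Between NZO/HlLtJ and C57BL/6J, 10 of the 34 genes were lower and 0 higher, against 12.3% lower and 11.6% higher over all genes. The median was -0.19, against -0.00065 over all. Edem1 had -0.54 (SE 0.07, edgeR adjusted p = 1.64e-05), and its 8 NZO/HlLtJ libraries all lay below the 7 of C57BL/6J, which ranged from 105 to 136 CPM. It was the 1 gene of the 34 without overlap, against 3.93% of all genes wholly lower and 3.85% wholly higher. P4hb had -0.35 (SE 0.07, edgeR adjusted p = 0.000986), Pdia6 -0.39 (SE 0.10, edgeR adjusted p = 0.00590) and Asns -0.39 (SE 0.10, edgeR adjusted p = 0.00619). Mlec had -0.19 (SE 0.05, edgeR adjusted p = 0.00997), Pdia4 -0.57 (SE 0.18, edgeR adjusted p = 0.0243), Sdf2l1 -0.44 (SE 0.14, edgeR adjusted p = 0.0249) and Pdia3 -0.22 (SE 0.07, edgeR adjusted p = 0.0274). All 4 protein disulfide isomerases were thus among the 10, with Atf4 and Xbp1 as the remaining genes.

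**Figure D4:**
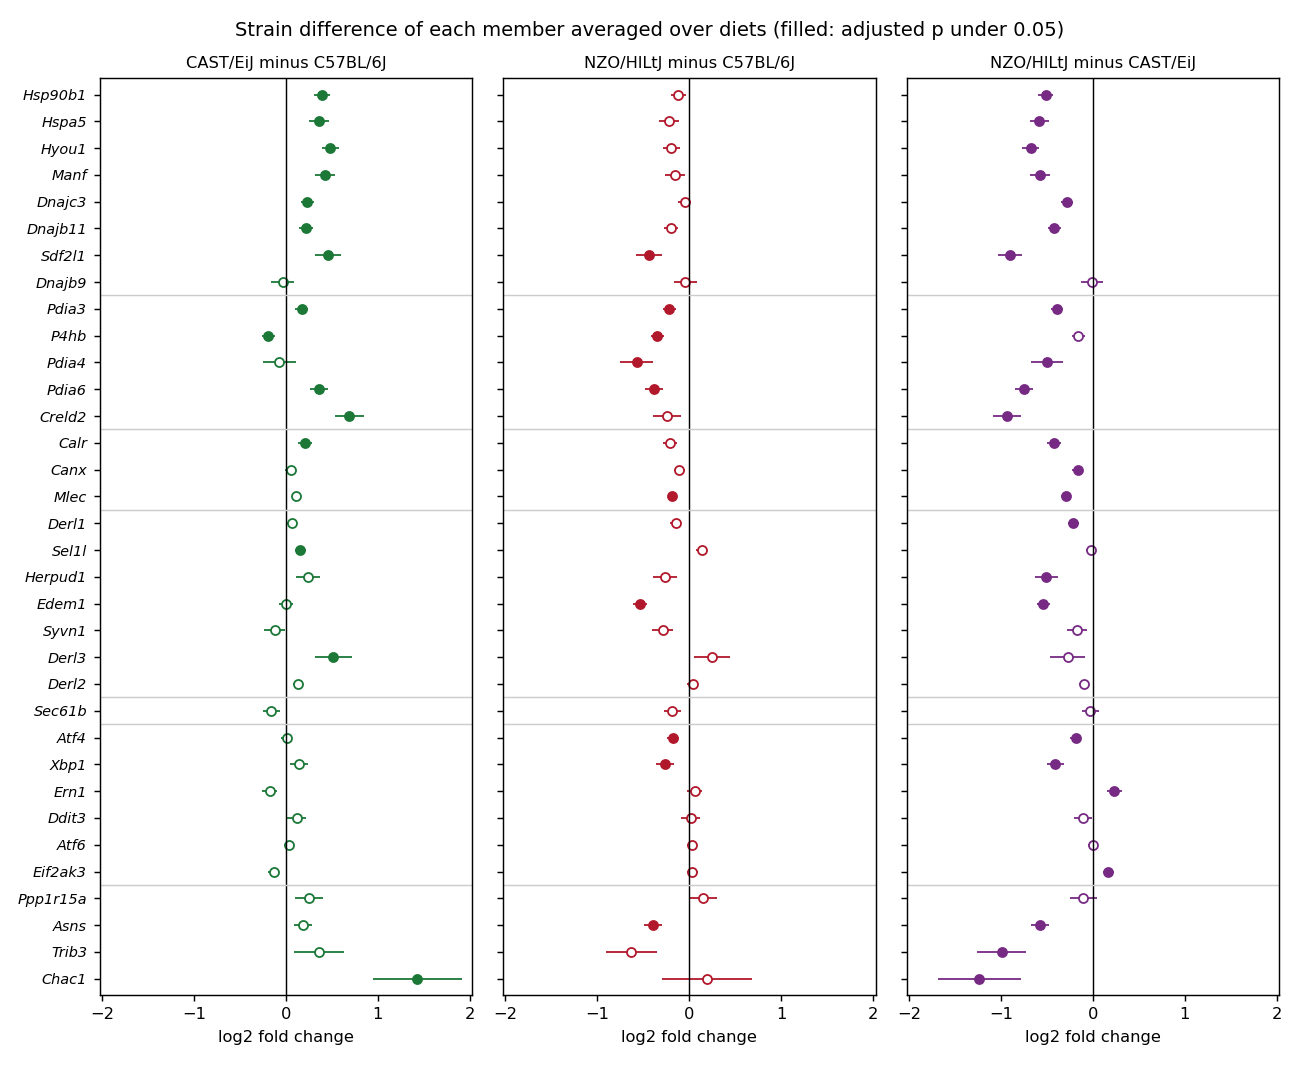
Points give the log2 fold change between strains averaged over diets, with bars of 1 SE, and filled points passed the edgeR adjusted p of 0.05. The third panel holds 22 filled points left of 0 and 2 right of it, the sensors Ern1 and Eif2ak3.

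The strain differences were also taken on each diet alone, a comparison added after seeing the data. On 10% fat, 2 genes (Edem1 and P4hb) were lower and 0 higher in NZO/HlLtJ than in C57BL/6J, with a background of 5.54% lower and 4.46% higher. On 44% fat, 17 were lower and 0 higher, with a background of 6.55% lower and 6.00% higher. Hspa5 was among the 17, with a log2 fold change of -0.65 (SE 0.14, edgeR adjusted p = 0.00413), as were Hyou1 with -0.53, Dnajb11 with -0.45, Pdia4 with -1.09 and Creld2 with -0.72. The difference between these diets is the one for which 0 of the 34 genes passed.

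CAST/EiJ and C57BL/6J showed the reverse order. On 10% fat, 11 genes were higher and 1 lower in CAST/EiJ, with a background of 18.9% higher and 19.1% lower. On 44% fat, 0 were higher and 1, Eif2ak3, was lower, with a background of 14.3% higher and 15.2% lower. Between NZO/HlLtJ and CAST/EiJ, 14 genes were lower on 10% fat and 18 on 44% fat, and 0 were higher on either. The backgrounds were 17.1% lower and 16.3% higher on 10% fat, and 17.4% lower and 17.0% higher on 44% fat. These comparisons share libraries with one another and with the averages above.

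Dnajb9, Derl2, Syvn1, Sec61b, Atf6, Ddit3 and Ppp1r15a passed in none of the 3 strain comparisons averaged over diets. Dnajb9 (ERdj4), a co-chaperone induced by XBP1, was at group means between 46.1 and 52.9 CPM. Ddit3 was at group means between 19.03 and 22.7 CPM. Macrophage markers differed between groups as well, with summed CPM of 713 to 1886 in CAST/EiJ on 44% fat and 339 to 522 in NZO/HlLtJ on 10% fat. Theca and interstitial markers ranged from 6044 to 8818 CPM in CAST/EiJ on 10% fat and from 12591 to 14452 CPM on 44% fat. They ranged from 7758 to 10879 CPM in NZO/HlLtJ and from 11929 to 15459 CPM in C57BL/6J over both diets, with no overlap between these strains. The largest parts of this sum were the steroid synthesis genes Hsd3b1 (median 5501 CPM over all libraries) and Cyp11a1 (2348 CPM), which luteal cells also express. Insl3 had a median of 3.34 CPM, so the sum is not specific to theca cells. Smooth muscle markers ranged from 693 to 932 CPM in NZO/HlLtJ and from 1123 to 2155 CPM in C57BL/6J, also with no overlap. Luteal markers ranged from 959.7 to 1408 CPM in CAST/EiJ on 10% fat and from 1856 to 2761 CPM on 44% fat. The part of these cell types in the results was not tested. Which genome the reads of each strain were aligned to is not given in the sources used here, and its part in the strain differences was not tested.

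Other genes of the pathway were counted from lists, to be read against the 24.8% of all genes that were lower and the 23.4% that were higher in NZO/HlLtJ than in CAST/EiJ. Of 22 genes for translocation, signal peptide removal and N-glycosylation, 10 were lower and 1 higher in NZO/HlLtJ than in CAST/EiJ. The oligosaccharyltransferase subunits Dad1 and Rpn2 had log2 fold changes of -0.47 (SE 0.07) and -0.43 (SE 0.06). Of 26 further lumenal folding enzymes, 17 were lower and 3 higher. The disulfide reductase Dnajc10 had -0.44 (SE 0.04) and the oxidases Ero1l and Ero1lb had -0.46 (SE 0.05) and 0.82 (SE 0.08). Of 19 other degradation genes, 7 were lower and 6 higher, near those shares, with the lectin Erlec1 at -0.40 (SE 0.05).

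Of 29 amino acid response targets of ATF4, 15 were lower and 2 higher in NZO/HlLtJ than in CAST/EiJ, against 24.8% and 23.4% of all genes. The serine synthesis enzyme Psph had -0.94 (SE 0.07), the arginine transporter Slc7a1 -1.27 (SE 0.16) and the secreted Stc2 -1.73 (SE 0.21). Of 20 other stress sensors and transcription factors, 5 were lower, near the share of all genes, and 1 higher. The ER-bound factor Creb3l2 had -0.70 (SE 0.10). Of 15 genes for transport from the ER to the Golgi, 5 were lower and 2 higher, and of 9 mitochondrial chaperones and proteases 3 were lower and 0 higher. The counts of lower genes in these last lists were not far from the share over all genes.

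The cytosolic heat shock genes, a stress response outside the ER, were counted beside them. In NZO/HlLtJ against CAST/EiJ, 8 of 13 were lower and 0 higher, against 24.8% and 23.4% of all genes, with Hspa4l at -1.71 (SE 0.19), Hsp90aa1 at -1.06 (SE 0.17) and Hsph1 at -1.57 (SE 0.26). For diet, 12 of 13 had a positive value in C57BL/6J, 12 in CAST/EiJ and 0 in NZO/HlLtJ, against 52.1%, 45.8% and 49.6% of all genes, and 0 passed by edgeR in any strain. The mitochondrial chaperones had positive values in 4, 7 and 1 of 9 genes in the same order.

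Within groups, the genes varied together with Hspa5 to different degrees. Over the 23 libraries, as deviations of log2 CPM from the group mean, Manf followed Hspa5 most closely. Its Pearson r was 0.97 and its Spearman rho 0.96, each with an adjusted permutation p of 0.00033. Before adjustment over 33 genes the permutation p was 1e-05, the smallest that 100000 permutations could give. Dnajb11 had r = 0.94 and rho = 0.91, Hyou1 r = 0.92 and rho = 0.87, and Creld2 r = 0.81 and rho = 0.65. In all, 10 of the 33 genes had an adjusted permutation p under 0.05 for r, all with a positive r. The other 6 were Hsp90b1, Syvn1, Xbp1, Mlec, Herpud1 and Calr, with r between 0.59 and 0.74. By Spearman's rho 8 of the 10 passed, without Hsp90b1 (rho 0.50, adjusted permutation p = 0.0886) and Calr (rho 0.56, adjusted permutation p = 0.0614).

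Several members had an r near 0 over all libraries. Pdia4 had r = 0.18, P4hb 0.05, Edem1 0.17, Sel1l -0.0020, Ern1 0.05 and Trib3 0.0070. Within the identifier series 76, 82 and 90, r was -0.24, -0.020 and 0.93 for Pdia4, -0.18, -0.51 and 0.89 for P4hb, and -0.54, 0.16 and 0.56 for Edem1. Atf6 had r = -0.51 and rho = -0.59, with adjusted permutation p-values of 0.0729 and 0.0539. The libraries farthest from the median in Hspa5 were CAST/EiJ 10% fat replicate 3, at -0.50 on the log2 scale, and C57BL/6J 10% fat replicate 2, at 0.31. Without them r was 0.95 for Manf, 0.90 for Dnajb11, 0.84 for Hyou1 and 0.77 for Creld2, while that of Calr went from 0.63 to 0.42. Within the identifier series 76, 82 and 90, r was 0.98, 0.97 and 0.99 for Manf and 0.90, 0.57 and 0.97 for Creld2. These series held 8, 9 and 6 libraries. CAST/EiJ 10% fat replicate 3, the farthest in Hspa5, was in series 90, and its part in the r values of that series was not tested. The genes come from the same libraries, so the 33 relations are not independent.

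**Figure D5:**
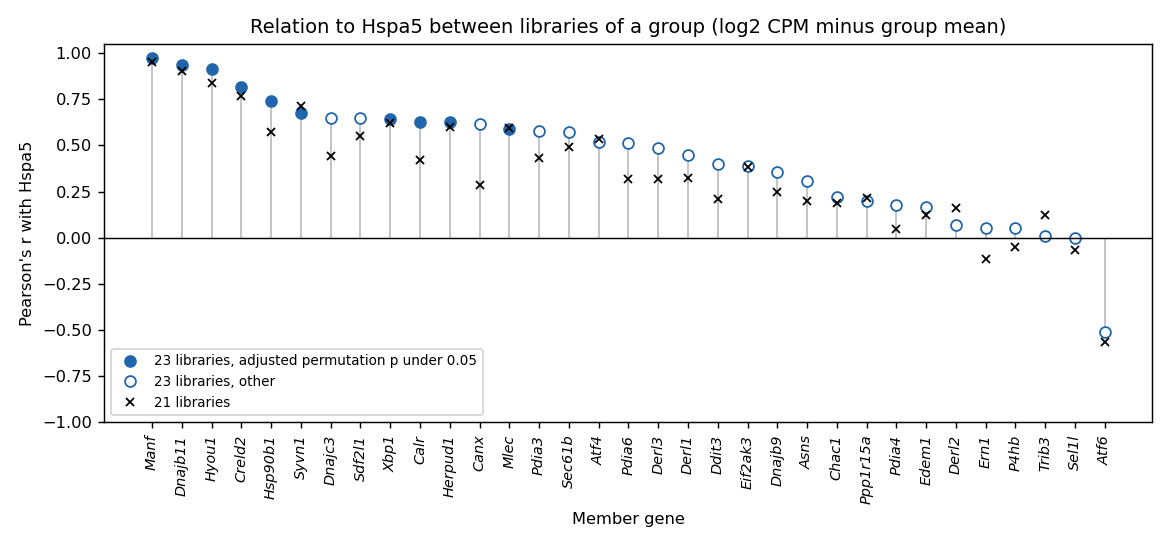
Circles give Pearson's r of each gene with Hspa5 over 23 libraries as deviations from the group mean, filled where the adjusted permutation p was under 0.05, and crosses give r without the 2 libraries farthest from the median. Manf, Dnajb11 and Hyou1 stand above 0.90 with all libraries, and Atf6 at the right end is at -0.51.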

How the data were processed

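Ovary libraries were grouped by the strain and diet in the labels. The authors deposited estimated counts per gene, of which 27.4% of values were not whole, and variance-stabilised values on a log2 scale. The genome build GRCm38 and the tool DESeq2 are named per the submitters' processing notes, and the aligner and counter are not given in the sources used here. Counts were rounded, filtered with filterByExpr (minimum count 10, minimum total 15) and scaled by TMM. A quasi-likelihood fit in edgeR 4.0.16 (R 4.3.3) with 6 group means over 23 libraries gave 10 contrasts. P-values were adjusted by Benjamini-Hochberg over all 20189 genes, with a threshold of 0.05. The fit was tested on simulated data. No pair of libraries of a group was alike within sampling noise, with chi-square per degree of freedom from 11.5 to 203.

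The members and gene lists were chosen with earlier results of these data known. All members were described. Statistics were given for up to 8 called members with the smallest p per comparison (4 per direction where both had them), or for the first 3 where fewer than 3 passed. Genes outside the members came from the lists, up to 4 per list with the smallest p first. Lengths came from the exon union of GENCODE gene models on GRCm38 (24557 of 24716 genes matched). Promoters came from RefSeq. Protein sequences and ER retention signals were not analysed here. Relations to Hspa5 used 100000 two-sided permutations within groups. Alternatives were relative log expression scaling, no filter, only the groups compared, the identifier series or 2 surrogate variables (sva 3.50.0) as terms, limma 3.58.1 with library quality weights, limma on the deposited log2 values, DESeq2 1.42.0, and leaving out libraries.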

Additional observations from a re-analysis of the deposited data

Results flagged for a closer look

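In 170 groups of 4 libraries (34 genes in 5 groups), 14 had a highest or lowest library whose gap to the nearest of the others exceeded 0.829 of the whole range. Chance flags about 1 in 20 groups.

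CAST/EiJ 10% fat replicate 2 was the high library for 5 genes. It held 66.8 CPM of Dnajb9 (others 42.8 to 45.5), 109 of Herpud1 (63.0 to 67.6), 103 of Syvn1 (61.4 to 64.4), 144 of Atf4 (114 to 118) and 3.78 of Chac1 (0.394 to 0.496). In the same group replicate 3 was low in Canx at 564 CPM (others 727 to 748), and replicate 1 was low in Trib3 at 1.45 CPM (others 3.15 to 3.18).

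Pdia4 had a single high library in 2 groups: C57BL/6J 44% fat replicate 2 at 846 CPM (others 424 to 480) and CAST/EiJ 44% fat replicate 1 at 771 CPM (others 384 to 430). CAST/EiJ 44% fat replicate 3 held 2.27 CPM of Chac1 (others 0.640 to 0.779). NZO/HlLtJ 44% fat replicate 3 held 737 CPM of Pdia3 (others 620 to 637) and 277 of Pdia6 (others 237 to 240). NZO/HlLtJ 10% fat replicate 3 was high in Sdf2l1 at 30.9 CPM (others 20.9 to 21.2) and low in Dnajc3 at 194 CPM (others 214 to 217).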

How the results depend on the processing

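Among recomputed counts of called genes 309 stayed within 1.5 times, 7 were larger and 9 smaller. The 309 include the diet comparisons, where no member was called in the main fit. Those counted as unchanged wherever none was called again, so this total says little about the stability of the calls between strains. With limma and quality weights 2 passed for diet in C57BL/6J, 2 for its difference from CAST/EiJ, and 18 (16 lower, 2 higher) for NZO/HlLtJ against C57BL/6J. The shares of all genes called there were 3.92%, 6.50% and 39.2%. For NZO/HlLtJ against C57BL/6J the count was 6 with the identifier series and 5 with 2 surrogate variables, against 10. Of all genes, 20.1% and 16.4% were called in these 2 fits, against 23.9% in the main fit. For CAST/EiJ against C57BL/6J the count was 9 with only the groups compared and 6 with surrogate variables, against 15. Of all genes, 44.2% and 32.3% were called there, against 46.8% in the main fit. Single diets gave 1 gene on 44% fat there, 2 on 10% fat and 17 on 44% fat for NZO/HlLtJ against C57BL/6J, and 14 on 10% fat for NZO/HlLtJ against CAST/EiJ. Positive diet values numbered 22 with surrogate variables, 20 with quality weights and 23 without both libraries high in oviduct markers in CAST/EiJ (against 13), and 2 with surrogate variables or quality weights in NZO/HlLtJ (against 4).

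Leaving out each library in turn gave 0 to 1 for diet in C57BL/6J, 0 to 3 for its difference from CAST/EiJ, 10 to 17 for CAST/EiJ against C57BL/6J, 6 to 14 for NZO/HlLtJ against C57BL/6J, 22 to 25 for NZO/HlLtJ against CAST/EiJ, and 9 to 21 positive values in CAST/EiJ and 2 to 5 in NZO/HlLtJ. The count for NZO/HlLtJ against C57BL/6J was 6 without C57BL/6J 10% fat replicate 1 or 44% fat replicate 1. The shares of all genes called in these omissions are not given here. A change of the members alone can therefore not be told from a change of the whole fit. With 2 surrogate variables the values of P4hb (0.022) and Derl3 (-0.043) for CAST/EiJ against C57BL/6J changed sign. The cause was not tested.

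Under all 9 alternatives and 23 omissions, 19 of 24 calls held for NZO/HlLtJ against CAST/EiJ, 3 of 15 (Creld2, Pdia6 and Sdf2l1) for CAST/EiJ against C57BL/6J, and 3 of 10 (Edem1, P4hb and Mlec) for NZO/HlLtJ against C57BL/6J. The relations to Hspa5 under 0.05 numbered 9 to 14 against 10, and ERSE matches 9 in the shorter window too. In simulated data for diet in NZO/HlLtJ, the 1 diet comparison simulated, 46% of 1.5-fold changes were recovered. At the smallest change simulated 4% were. Recovery in the real comparison may be lower.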
